A study of Macaca mulatta with 4 samples.

Results

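Semaphorins, plexins and neuropilins are a guidance system of ligands and receptors, followed here in infant rhesus macaque cortex after repeated sevoflurane, an inhaled general anaesthetic. Genes were taken by symbol from the deposited count table (SEMA followed by a digit, any PLXN symbol, NRP1 and NRP2), which gave 31 of 33618 genes: 20 semaphorins, 9 plexins and 2 neuropilins. RNA of wild-type Macaca mulatta brain, named as prefrontal cortex in the labels' protocols, was sequenced in 4 libraries, 2 of a control group whose agent is given as none and 2 of a sevoflurane group. Exposure was to roughly 2.5 to 3% sevoflurane for 4 hours, 3 times, starting at about postnatal day 7 and repeated 14 and 28 days later, with the tissue taken straight after the last exposure. The sources used here do not describe the handling of controls and do not say that replicates are different animals, and p-values then reflect only the spread between libraries, which may be technical.

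Semaphorins signal by contact or as secreted cues that turn growing axons, migrating cells and blood vessels, mostly away from the source. Their receptors are the plexins, whose intracellular part switches small GTPases, and most class 3 semaphorins also need a neuropilin, a coreceptor that additionally binds the vascular growth factor VEGF. In the brain the family guides axons and dendrites and prunes synapses, and several members are made by or act on cells of the oligodendrocyte lineage, the glia that form myelin.

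Library totals were between 7793757 counts (control replicate 3) and 11706115 (sevoflurane replicate 3), and the 31 genes together took 0.283 to 0.32% of them. Control replicate 3 stood apart from the other libraries on the first principal component, which held 52.3% of the variance (59.6, against -3.1 in control replicate 2 and -32 and -24.4 in the sevoflurane libraries). CAMK2A, a kinase subunit of forebrain excitatory neurons, had 1917 to 2232 CPM over the 4 libraries. Other markers of these neurons were less even, and 4 of 8 differed by more than 1.5-fold between the controls. SLC17A7, for example, had 814 and 1433 CPM in control replicates 2 and 3. CPM are read counts scaled to a library size common to all libraries, after TMM (trimmed mean of M values) normalisation. Differences are log2 fold changes, sevoflurane over control, and SE is their standard error. The test was edgeR's quasi-likelihood test, and a gene counts as called where its p, adjusted by Benjamini-Hochberg across the 17693 genes tested, is below 0.05. CPM does not correct for gene length, so levels are compared between libraries and not between genes.

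Of the 31 genes, 30 passed the filter on low counts, and SEMA3A, the founding secreted repellent, did not, with 11 counts in all. After sevoflurane 3 of the 30 were called lower, namely the plexin PLXNB3 and the transmembrane semaphorins SEMA5A and SEMA6A. They make up 10% of the tested genes of the family, while 0.599% of all tested genes were called, and 0.537% were called lower. By DESeq2 there were 4 calls, the same 3 genes and PLXNB1, among 28 members that it gave an adjusted p, beside 2.06% of the 13576 genes that had one. No member was higher by edgeR (0.0622% of all tested genes were), by DESeq2 or by limma-voom, and none was higher at an unadjusted p under 0.05 (4.35% of all tested genes were). At an unadjusted p under 0.05, 7 members were lower (SEMA6A, PLXNB3, SEMA5A, PLXNB1, SEMA3E, SEMA6D and SEMA3B), against 9.92% of all tested genes in either direction and 5.57% lower. The median log2 fold change of the 30 was -0.08, with 0.00 over all tested genes, and 23 of the 30 lay within 0.5 of no change. The groups did not overlap for 12 of the 30, of which 8 were lower and 4 higher. Over all tested genes that share was 41.2% (20.4% lower and 20.8% higher), so the count is near the background.

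**Figure D1:**
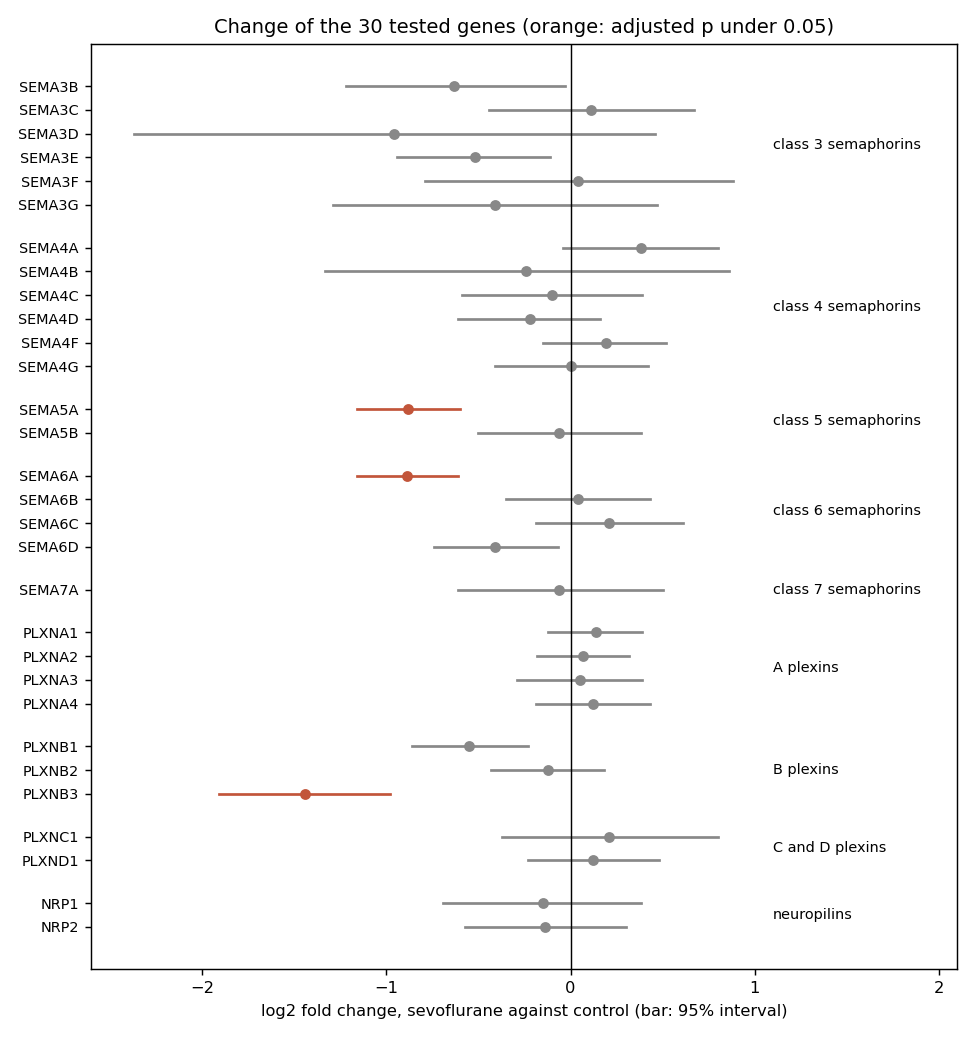
Log2 fold change of sevoflurane against control (horizontal axis) for each of the 30 tested genes, grouped by class, with bars for the 95% interval and orange for genes called. PLXNB3 (-1.44), SEMA6A (-0.89) and SEMA5A (-0.88) are the called genes, while the low-count SEMA3D (-0.96) has an interval that spans 0 and the highest value is 0.38 for SEMA4A.

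PLXNB3, a B-type plexin known from oligodendrocytes and described as a receptor of SEMA5A, had 139 and 172 CPM in control replicates 2 and 3 and 45.2 and 69.2 CPM in sevoflurane replicates 2 and 3. Both sevoflurane libraries lay far below both controls, and replicate 3 was the higher library in each group. The mean fell from 156 ± 23.2 to 57.2 ± 17.0 CPM (SD over 2 libraries each), or to 36.8% of the control level (log2 fold change -1.44, SE 0.21, edgeR adjusted p = 0.0213). The call held under each of 13 alternative settings, with log2 fold changes from -1.78 to -1.17.

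Its relatives PLXNB1 and PLXNB2 gave smaller differences. PLXNB1, the main receptor of SEMA4D, had 199 and 247 CPM in the control libraries and 156 and 149 CPM in the sevoflurane libraries. The groups did not overlap, but the difference (-0.55, SE 0.14, 95% interval -0.86 to -0.23) did not pass, with edgeR adjusted p = 0.172. DESeq2 called it (adjusted p = 0.0449), as did edgeR's likelihood ratio test (0.038) and the fit without control replicate 2 (-0.69, adjusted p = 0.0195). PLXNB2 had 121 and 109 CPM in controls and 101 and 110 CPM after sevoflurane (-0.12, 95% interval -0.43 to 0.18), and its groups overlapped. The ratio of PLXNB3 to PLXNB2 was 1.15 and 1.58 in the controls and 0.446 and 0.628 in the sevoflurane libraries, with no overlap between the groups. That ratio, and the others below, were chosen after values were seen, and with 2 libraries against 2 a two-sided exact permutation test cannot give a p below 0.333.

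SEMA5A, a transmembrane ligand with thrombospondin repeats that can repel or attract axons, had 183 and 189 CPM in the controls and 96.4 and 106 CPM after sevoflurane. The libraries of each group lay close together, with a wide gap between the groups. The mean of SEMA5A fell from 186 ± 3.82 to 101 ± 6.61 CPM (SD over 2 libraries each), or to 54.4% of control (-0.88, SE 0.13, edgeR adjusted p = 0.0213). Without sevoflurane replicate 2 the call was lost (-0.81, adjusted p = 0.0782), and it held under the other 12 alternatives.

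SEMA5B, the other class 5 ligand, had 29.5 and 38.3 CPM in the controls and 29.6 and 35.1 CPM after sevoflurane. These values overlapped fully, with a log2 fold change of -0.06 and a 95% interval from -0.50 to 0.38. SEMA5A counts were 6.22 and 4.92 times those of SEMA5B in the controls and 3.25 and 3.01 times after sevoflurane, ranges that do not overlap.

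SEMA6A, a transmembrane ligand of PLXNA2 and PLXNA4 that acts in axon and cell positioning and in oligodendrocyte maturation, had 206 and 223 CPM in the controls and 114 and 118 CPM after sevoflurane. Here too both sevoflurane libraries lay well below both controls. The mean of SEMA6A fell from 214 ± 12.3 to 116 ± 3.23 CPM (SD over 2 libraries each), or to 54.1% of control (-0.89, SE 0.12, edgeR adjusted p = 0.0212). It was called under all 13 alternatives, with log2 fold changes from -0.94 to -0.83.

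**Figure D2:**
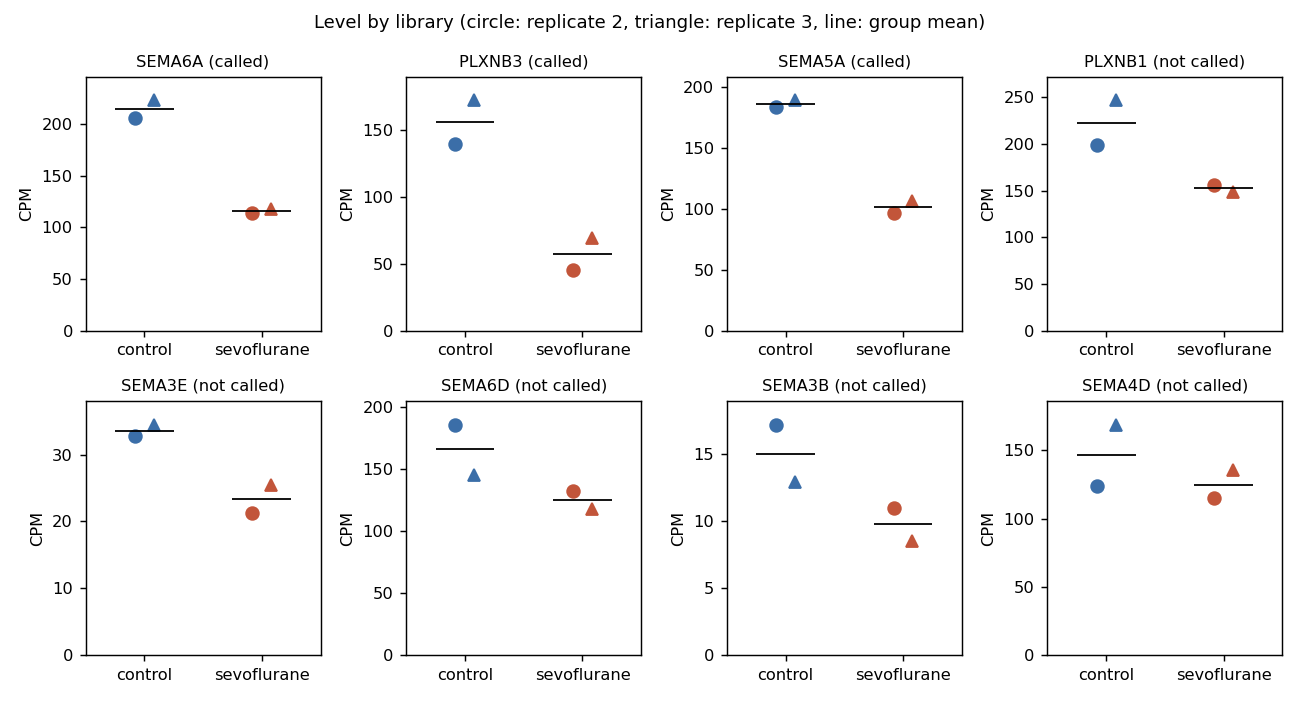
CPM (vertical axis, from 0) in each library for the 7 genes with an unadjusted p under 0.05 and for SEMA4D, with circles for replicate 2, triangles for replicate 3 and lines for group means. SEMA6A, PLXNB3 and SEMA5A show clear gaps between groups (for SEMA6A, 206 and 223 against 114 and 118 CPM), while the groups overlap for SEMA4D.

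The other class 6 ligands were not called. SEMA6D, a ligand of PLXNA1, had 186 and 145 CPM in the controls and 132 and 118 CPM after sevoflurane (-0.41, SE 0.15, edgeR adjusted p = 0.391). Its groups were apart, but the control libraries differed from each other more than the nearest libraries of the 2 groups did. SEMA6C had 31.3 and 37.0 CPM in the controls and 36.1 and 42.6 CPM after sevoflurane (0.21, 95% interval -0.19 to 0.61). The row named SEMA6B had 183 and 267 CPM against 241 and 221 CPM (0.04, SE 0.17). A separate row under RefSeq gene number 694257, which the gene table of assembly T2T-MMU8v2.0 also names SEMA6B, had 68.0 and 89.2 CPM against 73.2 and 73.2 CPM (-0.10, SE 0.16). Which of these rows holds the gene is uncertain, and neither was called.

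SEMA4D, a class 4 ligand made by oligodendrocytes that acts through B plexins, is the one of 4 members listed as known in the oligodendrocyte lineage (with PLXNB3, SEMA5A and SEMA6A) that was not called. It had 124 and 169 CPM in the controls and 115 and 136 CPM after sevoflurane, which overlap. Its log2 fold change was -0.22 (SE 0.17, edgeR adjusted p = 0.748), and the 95% interval from -0.61 to 0.16 does not reach the log2 fold changes of SEMA5A, SEMA6A or PLXNB3, though it meets the upper ends of the SEMA5A and SEMA6A intervals (-0.60 and -0.61). Leaving out control replicate 2 gave -0.43 and control replicate 3 gave 0.01, while leaving out sevoflurane replicate 2 gave -0.11 and sevoflurane replicate 3 gave -0.35. A difference between these genes was not tested. The ratio of PLXNB3 to SEMA4D, given as a description, was 1.12 and 1.02 in the controls and 0.394 and 0.508 after sevoflurane. This list of 4 was drawn up with earlier results of these data known, so its count is not independent evidence of direction.

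Among the other class 4 ligands, all transmembrane, the largest positive value of the family was that of SEMA4A, a ligand also known from immune cells. It had 19.9 and 22.1 CPM in the controls and 26.7 and 27.8 CPM after sevoflurane. The groups did not overlap, but the difference did not pass (0.38, SE 0.19, edgeR adjusted p = 0.572). SEMA4F had 57.2 and 65.4 against 72.3 and 67.3 CPM (0.19, 95% interval -0.15 to 0.52). SEMA4B, SEMA4C and SEMA4G had overlapping groups and log2 fold changes of -0.24, -0.10 and 0.00. For SEMA4B, at 2.44 to 4.77 CPM, the 95% interval ran from -1.33 to 0.86 and so included a 2-fold lower level.

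The secreted class 3 ligands gave no call among 6 tested by edgeR, with 2 lower at an unadjusted p under 0.05 and none called by DESeq2 or limma-voom. SEMA3E, which signals through PLXND1 without a neuropilin, had 32.8 and 34.5 CPM in the controls and 21.3 and 25.5 CPM after sevoflurane (-0.52, SE 0.18, edgeR adjusted p = 0.357). SEMA3B had 17.2 and 12.9 against 11.0 and 8.48 CPM (-0.63, SE 0.26, edgeR adjusted p = 0.478). In both genes the groups were apart, and the gap in SEMA3B was smaller than the spread within the controls.

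SEMA3C had 41.4 and 47.3 CPM in the controls and 34.9 and 60.9 CPM after sevoflurane, where the sevoflurane libraries enclosed the controls (0.11, SE 0.25). SEMA3D, SEMA3F and SEMA3G were low, from 1.03 CPM for SEMA3D in sevoflurane replicate 2 to 9.55 CPM for SEMA3G in control replicate 3. Their log2 fold changes were -0.96 for SEMA3D (95% interval -2.37 to 0.46), 0.04 for SEMA3F and -0.41 for SEMA3G, with SE of 0.37 or more. SEMA3A had 3, 0, 4 and 4 counts in control replicates 2 and 3 and sevoflurane replicates 2 and 3, too few to compare.

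SEMA7A, the ligand held by a lipid anchor, had 29.1 and 51.1 CPM in the controls and 36.7 and 40.0 CPM after sevoflurane. The controls enclosed the sevoflurane libraries, with a log2 fold change of -0.06 (95% interval -0.61 to 0.50). Its receptor PLXNC1 had 155 and 77.7 CPM in control replicates 2 and 3 and 141 and 129 CPM after sevoflurane. Control replicate 3 was thus low for PLXNC1 and high for SEMA7A, and their ratio, SEMA7A to PLXNC1, was 0.657 there against 0.188 to 0.311 in the other libraries. The log2 fold change of PLXNC1 was 0.21 (SE 0.26, edgeR adjusted p = 0.862), turned to -0.19 without control replicate 3 and became a call of 0.80 without control replicate 2 (adjusted p = 0.0278).

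The A plexins, receptors of class 6 ligands and, with neuropilins, of class 3 ligands, gave small differences, none of them called by edgeR, DESeq2 or limma-voom, or at an unadjusted p under 0.05. PLXNA1 had 344 and 343 CPM in the controls and 393 and 362 CPM after sevoflurane (0.14, 95% interval -0.12 to 0.39). PLXNA2 had 364 and 350 against 373 and 375 CPM (0.07, 95% interval -0.18 to 0.32). PLXNA3 (0.05) and PLXNA4 (0.12) had overlapping groups, and no interval of the 4 reached beyond -0.29 or 0.43. The ratio of the lower ligand SEMA6A to its receptor PLXNA2 was 0.565 and 0.638 in the controls and 0.305 and 0.316 after sevoflurane. For SEMA6A to PLXNA4 the ratios were 1.01 and 0.888 against 0.484 and 0.453.

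PLXND1, the plexin of blood vessels and SEMA3E receptor, had 168 and 124 CPM in the controls and 163 and 155 CPM after sevoflurane (0.12, 95% interval -0.23 to 0.48). The coreceptors overlapped between groups as well. NRP1 had 74.5 and 90.3 CPM in the controls and 54.2 and 93.8 CPM after sevoflurane (-0.15, 95% interval -0.69 to 0.38), and its sevoflurane libraries differed from each other by 0.79 on the log2 scale. NRP2 had 60.0 and 41.6 against 45.4 and 47.3 CPM (-0.14, 95% interval -0.57 to 0.30). These 3 genes are also transcribed in vessels, and endothelial markers had summed levels of 201 to 219 CPM across the 4 libraries. Single markers were less even. In sevoflurane replicates 2 and 3 VWF had 61.5 and 19.3 CPM, and FLT1 had 30.2 and 57.4 CPM.

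Summed over each class, B plexins had 460 and 528 CPM in the controls and 302 and 329 CPM after sevoflurane, and class 5 semaphorins 213 and 227 against 126 and 141 CPM. Class 6 semaphorins had 606 and 673 against 523 and 500 CPM. These sums were separate between the groups and carry the called genes. Those of the A plexins were separate in the other direction, with 977 and 1006 against 1061 and 1069 CPM. Groups were also separate for 41.2% of all tested genes, and no A plexin had an unadjusted p under 0.05. The summed levels of class 3, class 4 and class 7 semaphorins, of the C and D plexins and of the neuropilins overlapped. Control libraries differed from each other by more than 1.5-fold for 5 of the 30 genes (16.7%), which is 24.4% over all tested genes, and the sevoflurane libraries for 4.

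Markers of the oligodendrocyte lineage also had lower levels after sevoflurane. All 14 mature oligodendrocyte markers were detected in these libraries, and all 14 log2 fold changes were negative (median -1.94). By edgeR 12 of the 14 were called lower, beside 0.537% of all tested genes, and ASPA (-1.07) and KLK6 (-2.16) were not called. The summed level of the 14 was 9430 and 14885 CPM in the controls and 2459 and 3670 CPM in the sevoflurane libraries. Among 10 markers of precursors the calls were SOX10 and OLIG2, both lower, and 8 did not pass (median -0.74). SOX10 and OLIG2 mark the whole lineage, mature cells included. All 10 log2 fold changes were negative, from -1.41 for SOX10 to -0.14 for the precursor receptor PDGFRA, and TNR had -0.16. At an unadjusted p under 0.05, 8 of the 10 were lower, against 5.57% of all tested genes. The list had summed levels of 1033 and 1001 CPM against 564 and 648 CPM. In bulk tissue, fewer cells of a type and less RNA per cell cannot be told apart, and the part of these cells in the lower PLXNB3, SEMA5A and SEMA6A was not tested.

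Set against the geometric mean of the mature markers, PLXNB3 had ratios of 0.947 and 0.794 in the controls and 1.12 and 1.20 after sevoflurane. PLXNB3 thus differed between the groups by less than the mean of those markers did. Like 13 of the 14 markers, PLXNB3 was higher in replicate 3 of each group. SEMA5A, SEMA6A and SEMA4D were also higher in replicate 3 of each group, so this order was not particular to PLXNB3. SEMA6A had 1.40 and 1.03 times the mature marker mean in the controls and 2.81 and 2.05 times after sevoflurane, and SEMA5A had 1.25 and 0.870 against 2.38 and 1.84. Against the geometric mean of the precursor markers SEMA6A had 3.09, 3.05, 3.03 and 2.71 in control replicates 2 and 3 and sevoflurane replicates 2 and 3, and SEMA5A had 2.75, 2.58, 2.57 and 2.42. Both ratios differed little between the groups, with log2 differences of -0.10 for SEMA6A and -0.09 for SEMA5A. The groups did not overlap, but their nearest values (3.05 and 3.03, 2.58 and 2.57) lay closer together than the libraries within either group. The precursor mean is over markers that differed unequally, and the cells that make these genes were not tested. SEMA4D had 1.87 and 2.32 times the precursor mean in the controls and 3.06 and 3.12 times after sevoflurane. Against the mature marker mean SEMA4D had 0.844 and 0.781 in the controls and 2.84 and 2.36 after sevoflurane. PLXNB3 had 2.09 and 2.35 times the precursor mean in the controls and 1.21 and 1.59 times after sevoflurane.

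**Figure D3:**
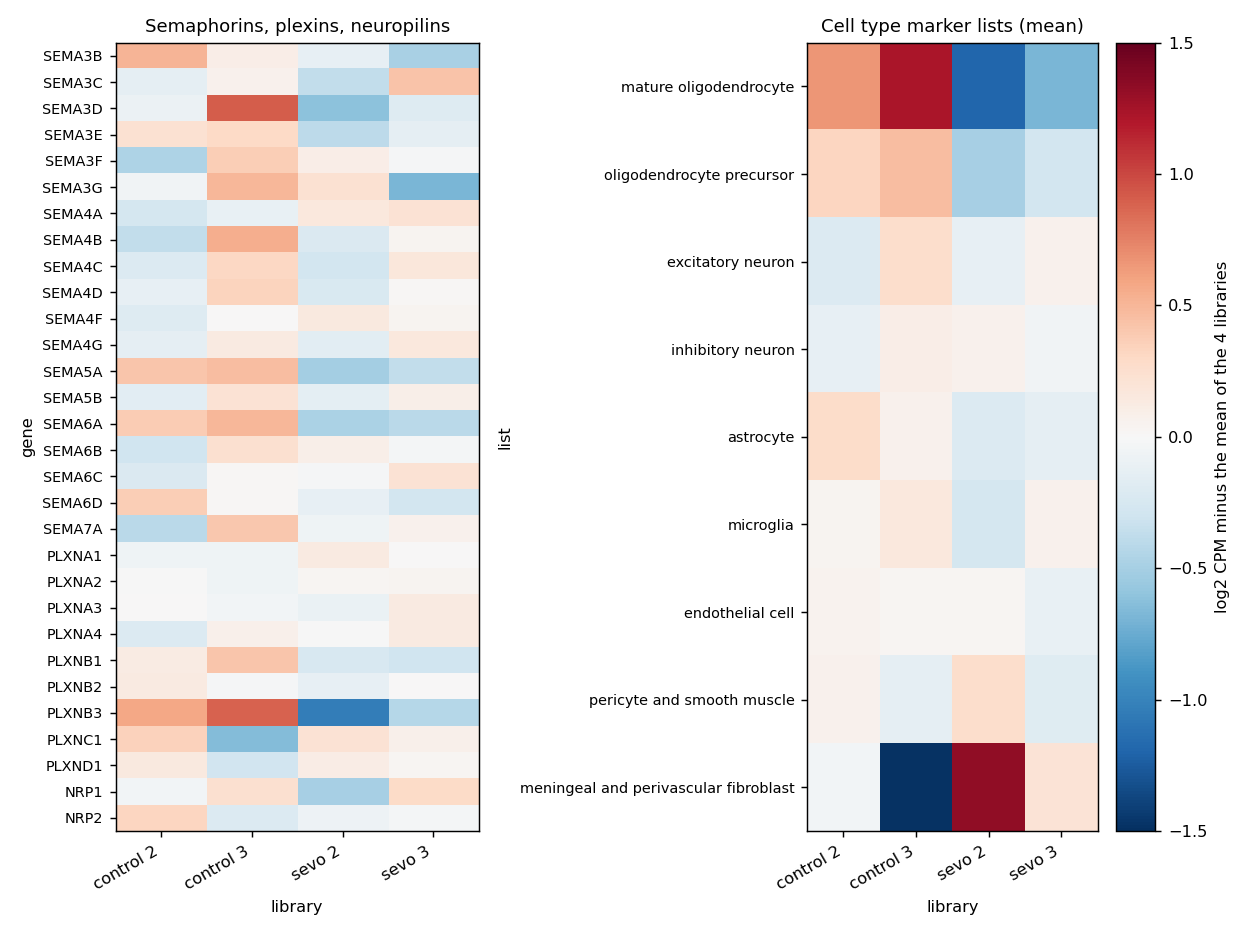
Log2 CPM of each gene (left, rows) and mean log2 CPM of each cell type marker list (right, rows) as the difference from its own mean over the 4 libraries (columns), blue for below and red for above. PLXNB3, SEMA5A and SEMA6A, called as lower, lie above their mean in both control libraries and below it in both sevoflurane libraries. The oligodendrocyte lists do too (mature markers 0.66, 1.22, -1.19 and -0.68), but SEMA5A and SEMA6A differ less between replicates than the mature list. The fibroblast list is lowest (-1.48) in control replicate 3 and highest (1.33) in replicate 2 of the sevoflurane group.

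Markers of other cells were detected in every list, with no marker at 0. Excitatory neuron markers had mean deviations of -0.21 and 0.26 in the controls and -0.12 and 0.06 after sevoflurane, and inhibitory neuron markers -0.12 and 0.10 against 0.07 and -0.05. Astrocyte markers had 0.27 and 0.07 against -0.21 and -0.13. GFAP was called lower (-1.41), and of the 8 astrocyte log2 fold changes 5 were negative and 3 positive. Microglia markers had 0.04 and 0.16 against -0.26 and 0.06. Of these 8 markers 6 had negative log2 fold changes, with CX3CR1 called lower (-1.03). C1QA (0.66) and C1QB (0.67) were positive and not called. Meningeal and perivascular fibroblast markers had -0.04 and -1.48 against 1.33 and 0.20, with positive log2 fold changes for all 8 (median 1.02) and SLC6A13 called higher (1.43). The part of these cells in the values of the family was not tested.

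Partners of the pathway outside the family were read from a list of 71 genes, of which 69 were tested. Of these, 1 was lower, 0 higher and 68 not called by edgeR, a share of 1.45% beside 0.599% of all tested genes, with a median of -0.04. At an unadjusted p under 0.05, 6 were lower and 1 higher. These 7 of 69 are near the background, since 9.92% of all tested genes had such a p (5.57% lower and 4.35% higher). RND2, a small GTPase of neurons and a relative of the plexin-binding RND1, was the called gene. It had 66.6 and 59.1 CPM in the controls and 33.6 and 34.4 CPM after sevoflurane (-0.89, SE 0.16, edgeR adjusted p = 0.0475). RND2 lost its call when scaled by library size alone (adjusted p = 0.0743), with no filter (0.0885), and without control replicate 2 (0.0526), sevoflurane replicate 2 (0.14) and sevoflurane replicate 3 (0.0937).

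Among 22 tested GTPases and their regulators, RRAS2, a relative of the R-Ras proteins that plexins switch off, came next (-0.80, SE 0.23, edgeR adjusted p = 0.229), and was called without sevoflurane replicate 3 (-1.07, adjusted p = 0.0389). None of 20 tested coreceptors and shared ligands was called by edgeR's quasi-likelihood test, DESeq2 or limma-voom. An unadjusted p under 0.05 was found for 2, near the 9.92% share over all tested genes. CNTN2, an adhesion molecule of axons and myelinating glia, had 304 and 532 CPM in the controls and 151 and 193 CPM after sevoflurane (-1.28, SE 0.24, edgeR adjusted p = 0.0549). It lay near the threshold and was called under 8 of 13 alternatives, among them the stricter filter (adjusted p = 0.047), the likelihood ratio test (7.87e-05) and each fit without 1 library (from -0.82 without control replicate 3 to -1.63 without control replicate 2). CSPG4, a proteoglycan of oligodendrocyte precursors, had -0.55 (SE 0.16, edgeR adjusted p = 0.239). VEGFA, the neuropilin-binding growth factor, had 44.1 and 77.8 against 44.9 and 193 CPM, with a high value in sevoflurane replicate 3 alone. Of 27 kinases and cytoskeletal effectors none was called by edgeR's quasi-likelihood test, DESeq2 or limma-voom. The 3 with an unadjusted p under 0.05 are again near the 9.92% share. MICALL1 (-0.76, SE 0.20, edgeR adjusted p = 0.183) and FYN, a kinase in semaphorin and myelin signalling (-0.29, SE 0.12, edgeR adjusted p = 0.481), had the smallest p. MICALL1 was called by the likelihood ratio test (adjusted p = 0.0333) and without control replicate 2 (-0.97, 0.043).

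The other large guidance families gave 1 call among 42 tested netrin, slit, repulsive guidance, ephrin and Eph genes, 2.38% of them beside 0.599% of all tested genes, with a median of -0.03. At an unadjusted p under 0.05, 14 of the 42 stood out (7 higher and 7 lower), against 9.92% of all tested genes. EPHA8, an Eph receptor, rose from 3.90 and 2.52 CPM to 11.1 and 21.1 CPM (2.30, SE 0.39, edgeR adjusted p = 0.0399). The call was lost with library size alone (adjusted p = 0.0602), with no filter (0.0795), by limma-voom (0.1) and without control replicate 3 (2.04, 0.103). EPHB3 (-0.84, adjusted p = 0.0798), the netrin receptor UNC5C (-0.59, adjusted p = 0.131) and RGMA (-0.83, adjusted p = 0.143) did not pass in edgeR's quasi-likelihood test. All 3 were called by DESeq2 (adjusted p = 0.0202, 0.0404 and 0.00602) and by edgeR's likelihood ratio test (0.00305, 0.0184 and 0.00935), and RGMA also without control replicate 2 (-1.11, 0.0116) and without sevoflurane replicate 2 (-0.99, 0.0141). Whether the semaphorin family differed from these families was not tested.

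**Figure D4:**
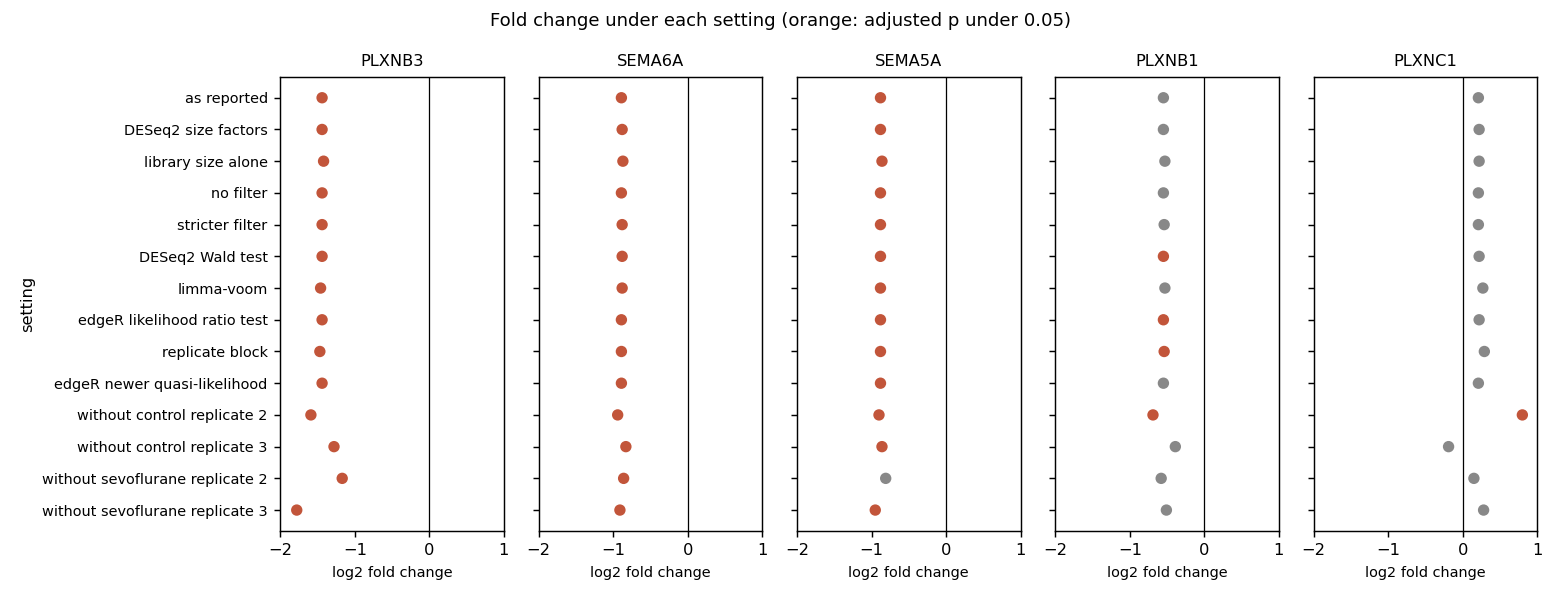
Log2 fold change (horizontal axis) of 5 genes under the reported fit and 13 alternatives (rows), orange where the adjusted p is under 0.05. PLXNB3 and SEMA6A were called in every row and SEMA5A in all but the fit without sevoflurane replicate 2, while PLXNC1 runs from -0.19 to 0.80 when a control library is left out.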

How the data were processed

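RNA was sequenced from 4 libraries, 2 control and 2 sevoflurane. The authors deposited a table of raw read counts, with genes in rows and a column for each library. Alignment was with HISAT2, per the submitters' processing notes. No program for counting, genome build, annotation or strand setting is named in the sources used here, so near-identical copies and antisense partners are uncertain. No sequence or transcript length was used.

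Groups were compared with edgeR 4.0.16 under R 4.3.3, with its filter (10 counts at the median depth and 15 in total), TMM scaling, a model of group alone and the quasi-likelihood test (two-sided). CPM and 95% intervals come from that fit. All counts per sample were used as deposited. The analysis steps were tested on simulated data. There 47 of 92 genes changed 2-fold (51.1%) and 83 of 97 changed 4-fold (85.6%) were called, and 11 unchanged genes were called. A gene that was not called may therefore still differ. The alternatives were DESeq2 1.42.0, limma-voom (limma 3.58.1), other scalings and filters, edgeR's likelihood ratio test, a replicate block, leaving out each library and, chosen after seeing the data, edgeR's newer quasi-likelihood fit. The stricter filter kept genes with a mean of 5 CPM that reached 1 CPM in 2 libraries.

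The members and lists were chosen with earlier results of these data known. Values are given per library for members called, at an unadjusted p under 0.05, in the lineage list, or with the highest mean CPM of a class. The list genes named are those called or with the 2 smallest p of a group. Other genes were chosen after their values were seen.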

Additional observations from a re-analysis of the deposited data

How the results depend on the processing

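Settings that moved a count by over 1.5 times are given here, with some that moved it less, such as the family's change from 3 to 4 calls. Over all genes the 106 calls became 60 with no filter, 279 by DESeq2, 441 by the likelihood ratio test, 511 with the replicate number as a block and 145 to 283 with a library left out. The 3 calls in the family became 4 by DESeq2, the likelihood ratio test and the replicate block, each time by adding PLXNB1, and 2 to 5 with a library left out (5 without control replicate 2). The family's median of -0.08 ran from -0.23 without control replicate 2 to 0.02 without control replicate 3. The 1 call among pathway genes became 0 with library size alone and with no filter, 2 with the stricter filter and with edgeR's newer quasi-likelihood fit, 3 by the likelihood ratio test, 5 with the replicate block and 2 with any 1 library left out. The 1 call in other guidance families became 0 with library size alone, with no filter and by limma-voom, 4 by DESeq2, 5 by the likelihood ratio test, 6 with the replicate block and 0 to 4 with a library left out. Same-numbered libraries did not deviate together (correlation 0.01 over genes, 2 pairs), and the labels tie the numbers to no shared animal or batch, so they were not taken as pairs. However, 13 of 14 mature oligodendrocyte markers were higher in replicate 3 of both groups, and 7 of 8 fibroblast markers were lower there. No called value changed sign under any alternative run. With a library left out, the lone library of its group is assumed to vary like the other group. Among members not called, the 95% intervals of SEMA3B, SEMA3D, SEMA3G and SEMA4B included 2-fold lower levels.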
